A study of Mus musculus with 38 samples.

Results

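Gene expression in whole testes of B6 males was compared between 5 and 7 days post partum (dpp), the interval in which undifferentiated spermatogonia give rise to differentiating spermatogonia and the first germ cells prepare for meiosis. The members are the 3 arrays labelled B6 at 5 dpp and the 3 labelled B6 at 7 dpp, taken by these labels alone, of 38 arrays in the series. The series asked where testicular gene expression departs from that of B6 when chromosomes of the MSM strain are placed in a B6 background. B6 is a laboratory inbred strain and was unmanipulated at both ages, with no transgene, deletion or treatment. MSM is an inbred strain of another mouse subspecies. B6-ChrXMSM carries almost the whole MSM X chromosome in B6, and B6-ChrXTMSM carries only its distal part. Groups of these strains, each with 3 arrays at 5 dpp and 3 at 7 dpp, were used here to ask whether the B6 change recurred. XS39-tel, an X chromosome congenic strain with 3 arrays at 5 dpp, entered only 1 fit over all groups. So did (B6-ChrXTMSM x B6-Chr1MSM)F1 males, with 3 arrays at 5 dpp and 8 at 7 dpp. These F1 males carry the distal MSM X and are heterozygous for the MSM chromosome 1.

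Each array was hybridised with RNA of the testes of separate mice on an Affymetrix mouse genome array, and different males were killed at each age, so no animal was followed in time. The RNA holds every cell type of the organ and whatever was dissected with it. A lower level of a gene can therefore reflect fewer cells of a type or less RNA per cell, which cannot be told apart in bulk testis. No label gives a day of extraction, hybridisation or scanning, so age and any such batch cannot be told apart either.

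In the testis at this age, Sertoli cells surround spermatogonia within the seminiferous cords, and Leydig cells, peritubular myoid cells, vessels and macrophages lie between the cords. Spermatogonia renew under niche signals such as GDNF, and they differentiate when retinoic acid reaches them, with the receptor tyrosine kinase KIT and the transcription factors SOHLH1 and SOHLH2 marking the step. Retinoic acid also induces STRA8, after which cohesins and axial proteins are loaded on the chromosomes for meiotic prophase.

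Values are log2 signals. A gene was tested when the mean of at least 1 age exceeded log2 of 10, and it was called when its adjusted p was under 0.05 and its fold change at least 1.5. Of 10249 genes tested, 415 were called higher at 7 dpp (4.05%) and 471 were called lower (4.60%). The median difference of all genes tested was 0.015 on the log2 scale, with an SD of 0.38. For 884 of the 886 called genes the 3 arrays of one age all lay above the 3 of the other, and over all genes tested the 7 dpp arrays were all above in 32.7% and all below in 28.3%. Array medians lay between 2.68 and 2.70. The first principal component, with 81.6% of the variance, separated the ages. The third 5 dpp array lay nearer to the 7 dpp arrays than the other 5 dpp arrays did. It was the lowest 5 dpp array for 71.5% of the genes called lower, against 36.5% of all genes tested. It was also the highest 5 dpp array for 240 of the 415 genes called higher, against 3288 of all 10249 genes tested. Values without this array, or with it as the only 5 dpp array, are given beside results that they move most. With 1 array at 5 dpp the spread comes from the 7 dpp arrays alone and the lone array is assumed to vary like them, so a call lost in that setting also reflects the smaller number of arrays.

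**Figure D1:**
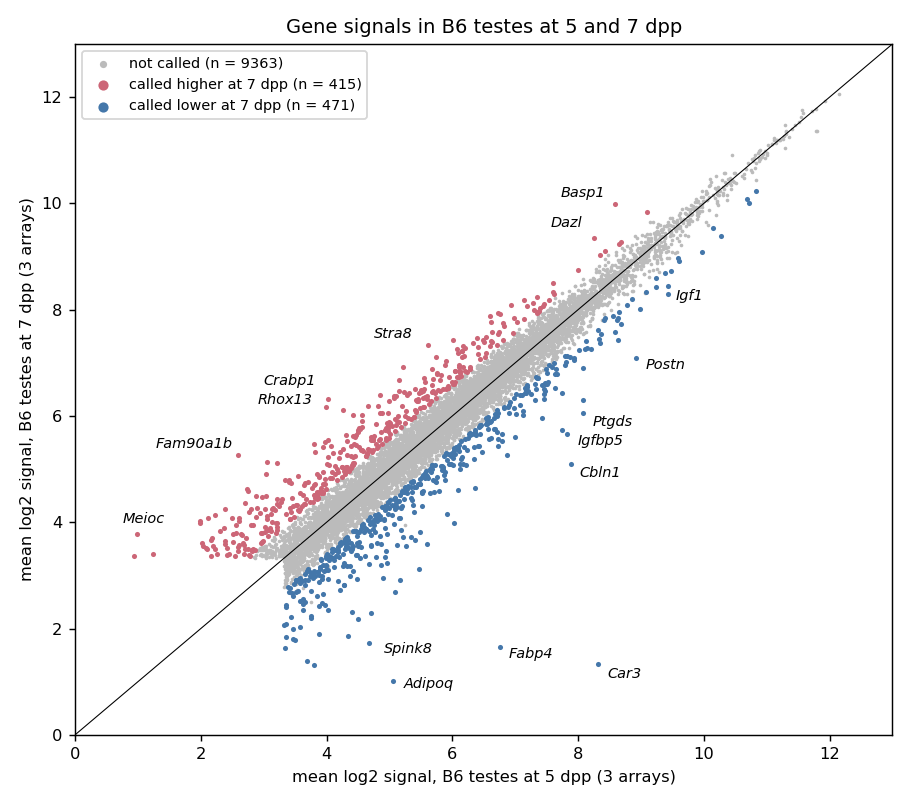
Mean log2 signal of each gene tested at 5 dpp (horizontal) and 7 dpp (vertical), 3 arrays per age, with the 415 genes called higher and the 471 called lower in colour. Most genes lie on the diagonal, and the points farthest below it are Car3, Fabp4 and Adipoq.

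The largest rise among called genes was that of *Meioc*, whose product holds germ cells in meiotic prophase. Its log2 signals were 1.12, 0.77 and 1.05 at 5 dpp and 3.52, 4.03 and 3.81 at 7 dpp. The groups did not overlap (log2 difference 2.80, standard error 0.14, adjusted p = 2.7e-05), and all 5 dpp arrays lay below the filter level, so the size of the rise is set by a weak signal. The next largest rises were those of *Fam90a1b* (2.66), *1700013H16Rik* (2.43), *Crabp1* (2.28), which encodes a retinoic acid binding protein, and *Runx3* and the X-linked homeobox gene *Rhox13* (both 2.17). They were followed by *H2-Q10* (2.08), *Dmrtb1* (2.04), *Slc27a2* (2.00) and *Tbx22* (1.96). Without a filter on low signals another probe set represented *Runx3*, with a difference of 0.049 and no call. In all, 97 genes called higher were below the filter level at 5 dpp, and 105 genes called lower were below it at 7 dpp.

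The largest falls were those of *Car3* (-6.98), *Fabp4* (-5.10) and *Adipoq* (-4.03), genes of adipocytes described further on. *Spink8*, *Cbln1*, *Defb29*, *Adgrg2*, *Krt18*, *Egfl6* and *Krt8* followed, with differences from -2.95 to -2.34. *Cbln1*, which encodes a secreted protein of the cerebellin family, had log2 signals of 7.94, 7.80 and 7.90 at 5 dpp and 4.91, 5.43 and 4.94 at 7 dpp. These groups were far apart with little spread within each (log2 difference -2.79, standard error 0.13, adjusted p = 2.26e-05).

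Among genes above log2 of 100 at both ages, 36 rose and 56 fell. The largest rises were those of *Basp1* (1.41), the Polycomb group gene *Pcgf5* (1.22), *Ndrg4* (1.16), *Slc25a31* (1.16), which encodes the ADP/ATP carrier of germ cells, and *Dazl* (1.10), an RNA-binding protein of germ cells. The largest falls were those of *Postn* (-1.84), a matrix protein, *Ptn* (-1.21), a secreted growth factor, *Inhba* (-1.18), the activin A subunit, *Col5a2* (-1.12), a collagen, and *Gas1* (-1.02). For *Postn* the difference was -1.28 with no call when the third array was the only one used at 5 dpp.

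Most regulators of meiotic entry that were tested were called higher at 7 dpp. Of 9 tested, 7 were called higher and 1 lower, against 4.05% and 4.60% of all genes, with a median difference of 1.10. The list has 12 genes on the array, and *Rec8*, *Prdm9* and *Ccna1* were below the filter. *Meioc* and *Dmrtb1* passed the filter through their 7 dpp means alone. With the filter at log2 of 50, 4 members were called higher. *Stra8*, the retinoic acid target that licenses meiotic entry, had log2 signals of 5.62, 5.58 and 5.64 at 5 dpp and 7.18, 7.49 and 7.31 at 7 dpp, which is 3.28-fold (log2 difference 1.71, standard error 0.079, adjusted p = 2.16e-05). The 7 dpp arrays were well above the 5 dpp arrays, whose values were almost equal. *Dmrtb1*, a transcription factor that times the switch from mitosis to meiosis, had signals of 1.84 to 2.07 at 5 dpp and 3.98 to 4.12 at 7 dpp, again without overlap and from below the filter level. *Sohlh1*, a transcription factor of differentiating spermatogonia, rose by 1.48 and its partner *Sohlh2* by 0.84. *Rbm46*, an RNA-binding partner of the MEIOC complex, rose by 0.92, and *Ythdc2*, the helicase of that complex, differed by 0.42 without a call. *Ccna2*, the mitotic A-type cyclin, was the member called lower (-0.72), but its other probe set differed by 0.17 the other way. With the third array as the only 5 dpp array, that other probe set represented the gene, at 0.16.

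The synaptonemal complex and meiotic cohesin were represented by 11 genes, and 10 of them were called higher, with a median difference of 1.28. None was called lower by limma, and 0 were lower at an unadjusted p under 0.05. *Sycp3*, a component of the lateral element, had log2 signals of 5.17, 5.14 and 5.32 at 5 dpp and 6.83, 7.06 and 6.84 at 7 dpp (log2 difference 1.71, standard error 0.08, adjusted p = 2.16e-05). No 5 dpp array reached the lowest 7 dpp array. *Stag3*, the meiosis-specific cohesin subunit, had signals of 4.50, 4.56 and 4.61 at 5 dpp and 5.87, 5.86 and 5.98 at 7 dpp, and these were equally well separated (log2 difference 1.34, standard error 0.056, adjusted p = 1.84e-05). The other cohesin gene, *Smc1b*, rose by 1.21, the lateral and transverse filament genes *Sycp2* and *Sycp1* by 1.53 each, and the central element gene *Tex12* by 1.55. *Hormad1*, an axis protein that monitors pairing, rose by 1.28 from below the filter level. *Syce2* was the member not called, at 0.58, which is just under the fold threshold.

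Genes of meiotic recombination were less uniform. Of 9 tested, 4 were called higher and none lower by limma (0 lower at an unadjusted p under 0.05), and the median difference was 0.27. The list has 21 genes on the array. *Tex11*, an X-linked crossover factor, had log2 signals of 4.38, 4.34 and 4.53 at 5 dpp and 5.98, 6.05 and 6.02 at 7 dpp (log2 difference 1.60, standard error 0.061, adjusted p = 1.62e-05). *Tex15*, which acts in double-strand break repair and in transposon silencing, rose by 0.95, and *Rec114*, needed to form breaks, rose by 0.98. The fourth was *Hormad1*. *Brca2*, a general DNA repair gene, and *Mnd1* and *Psmc3ip*, partners of the recombinases, differed by 0.25, -0.12 and -0.11 without a call. *Dmc1*, the meiotic recombinase, had 2 probe sets. That of the higher mean differed by 0.27 and was not called, and the other was called higher at 1.39. Without replicate 2 or 3 at 5 dpp the second probe set represented *Dmc1*, and the median of the list was then 0.96 or 0.93. Without replicate 1, 2 or 3 at 7 dpp the median was 0.41, 0.34 or 0.39.

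Promoters of some of these genes are shown because these genes were called higher at 7 dpp and carry the germ line results. They are the 250 bases before the annotated start, on the gene's strand, from RefSeq on GRCm38.p6, and they were searched on both strands for CACGTG, an E-box, and for AGGTCA, a core sequence bound by nuclear receptors. Capitals mark these letters, which overlap in the *Sohlh1* window. The motifs and genes were chosen after the values were seen. *Stra8* is at chr6:34920698-34920947 (plus strand), *Sohlh1* at chr2:25847249-25847498 (minus strand), *Sycp3* at chr10:88459337-88459586 (plus strand), *Stag3* at chr5:138280259-138280508 (plus strand), *Hormad1* at chr3:95559427-95559676 (plus strand, 1 of 2 windows) and *Tdrd9*, a helicase of the piRNA pathway, at chr12:111971309-111971558 (plus strand).
Stra8: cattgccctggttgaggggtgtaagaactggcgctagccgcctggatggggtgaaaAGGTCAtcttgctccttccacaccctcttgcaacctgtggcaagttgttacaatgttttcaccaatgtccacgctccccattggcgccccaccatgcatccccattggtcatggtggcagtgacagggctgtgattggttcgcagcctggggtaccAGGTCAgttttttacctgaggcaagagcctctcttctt
Sohlh1: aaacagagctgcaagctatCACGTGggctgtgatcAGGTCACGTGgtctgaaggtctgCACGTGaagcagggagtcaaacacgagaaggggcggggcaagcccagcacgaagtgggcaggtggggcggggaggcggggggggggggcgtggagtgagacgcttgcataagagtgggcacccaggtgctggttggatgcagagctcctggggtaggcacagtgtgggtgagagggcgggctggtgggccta
Sycp3: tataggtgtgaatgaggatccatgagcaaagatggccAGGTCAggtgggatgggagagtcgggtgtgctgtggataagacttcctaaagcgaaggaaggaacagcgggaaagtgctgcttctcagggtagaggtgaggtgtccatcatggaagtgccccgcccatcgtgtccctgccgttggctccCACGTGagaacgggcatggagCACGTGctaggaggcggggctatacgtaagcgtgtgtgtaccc
Stag3: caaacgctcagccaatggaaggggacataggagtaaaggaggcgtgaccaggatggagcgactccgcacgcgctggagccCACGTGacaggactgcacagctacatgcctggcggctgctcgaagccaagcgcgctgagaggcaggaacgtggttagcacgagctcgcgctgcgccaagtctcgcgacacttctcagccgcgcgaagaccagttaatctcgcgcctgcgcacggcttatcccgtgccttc
Hormad1: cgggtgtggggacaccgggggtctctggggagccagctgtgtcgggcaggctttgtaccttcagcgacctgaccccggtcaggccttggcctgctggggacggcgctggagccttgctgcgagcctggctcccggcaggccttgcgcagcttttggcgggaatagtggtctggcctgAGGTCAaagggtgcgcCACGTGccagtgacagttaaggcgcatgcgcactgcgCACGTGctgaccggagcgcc
Tdrd9: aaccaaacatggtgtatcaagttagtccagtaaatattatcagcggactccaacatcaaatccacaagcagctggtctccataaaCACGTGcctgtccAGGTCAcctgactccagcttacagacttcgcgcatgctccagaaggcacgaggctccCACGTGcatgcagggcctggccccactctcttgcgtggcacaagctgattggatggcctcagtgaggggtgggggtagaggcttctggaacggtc

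The *Stra8* window held AGGTCA at 194 and 38 bases before the start and no CACGTG. Of the synaptonemal complex and cohesin genes, 7 of 11 held CACGTG in this window, as did 6 of 17 piRNA pathway genes with a window. Among lists with no meiotic role it stood in 4 of 12 genes of the insulin-like growth factor axis, 3 of 11 immediate early genes, 4 of 15 genes of cholesterol synthesis and none of 14 collagen and matrix genes. CACGTG stood in 6.02% of all 32851 windows of the table and in 10.3% of the 8354 tested genes that had one. It was in 14% of genes called higher, in 5.25% of genes called lower and in 10.4% of genes not called. AGGTCA stood in 14% of all windows, in 14.8% of genes called higher and in 11.4% of genes called lower. A match describes these letters only and names no bound site.

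Genes of the germ cell RNA granule and of the piRNA pathway, which silences transposons, were mostly higher at 7 dpp. Of 20 tested, 17 were called higher and none lower by limma (0 lower at an unadjusted p under 0.05), the median difference was 1.03, and in all 20 every 7 dpp array lay above every 5 dpp array. The list has 23 genes on the array, and with the filter at log2 of 50, 9 were called higher. *Piwil2*, a PIWI protein that binds piRNAs, had log2 signals of 5.71, 5.70 and 5.83 at 5 dpp and 7.03, 7.17 and 7.11 at 7 dpp (log2 difference 1.36, standard error 0.061, adjusted p = 2.16e-05). Its groups stood more than 1 log2 unit apart. *Tdrd9* had signals of 3.65, 3.72 and 4.04 at 5 dpp and 5.46, 5.47 and 5.47 at 7 dpp, with the third 5 dpp array the highest of its age and still below each 7 dpp array (log2 difference 1.66, standard error 0.10, adjusted p = 3.84e-05). *Rnf17*, a component of germ cell granules, rose by 1.27, *Mael*, a transposon silencing factor, by 1.16, and *Ddx4*, the mouse vasa helicase, by 0.74. *Tdrd5*, *Tdrd7* and *Mov10* were not called, at 0.56, 0.45 and 0.14.

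**Figure D2:**
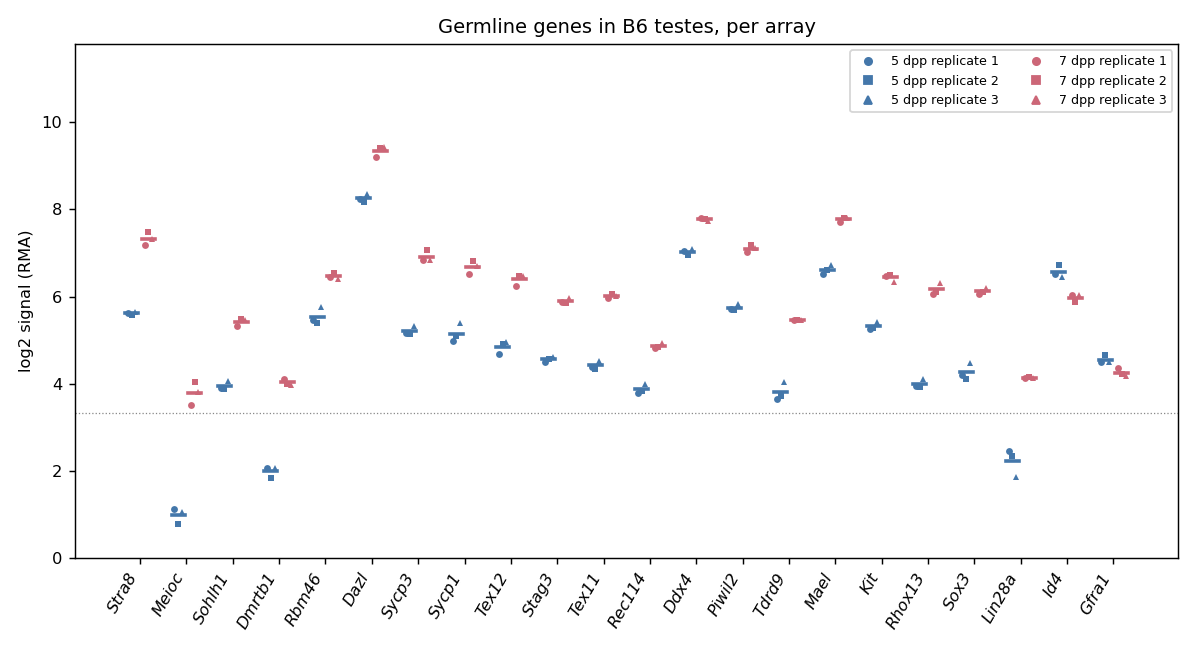
Log2 signal of named germ line genes on each of the 3 arrays at 5 dpp and the 3 arrays at 7 dpp, points for arrays and bars for group means, with the dotted line at the filter level of log2 of 10. Each of the genes shown that was called has its 3 arrays of the 2 ages apart.

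Markers of differentiating spermatogonia rose in most cases, 10 of 13 called higher and 1 lower, with a median of 1.12. This list is not independent of others. Of the genes called higher, *Stra8*, *Sohlh1*, *Sohlh2* and *Dmrtb1* are also meiotic entry regulators here, and *Rhox13* and *Nxf2* are also on the X-linked list below. *Kit*, the receptor that defines these cells, had log2 signals of 5.25, 5.27 and 5.42 at 5 dpp and 6.47, 6.50 and 6.34 at 7 dpp (log2 difference 1.12, standard error 0.068, adjusted p = 4.3e-05). The groups stood apart by about 1 log2 unit. *Crabp1* had signals of 3.93, 3.99 and 4.17 at 5 dpp and 6.12, 6.52 and 6.30 at 7 dpp (log2 difference 2.28, standard error 0.11, adjusted p = 2.16e-05), also without overlap. *Dnmt3b*, a de novo DNA methyltransferase, rose by 1.09, and *Lmo1*, a transcriptional cofactor, by 1.52. *Ccnd2*, the D-type cyclin that appears as spermatogonia differentiate but is also made in somatic cells, was called lower, with signals of 9.98 ± 0.027 at 5 dpp and 9.08 ± 0.11 at 7 dpp (SD, n = 3 each). *Dmrt1*, which both Sertoli and germ cells express, differed by 0.47 without a call. Of the 5 probe sets of *Dnmt3a*, the brightest differed by -0.15 without a call, and another was called higher at 0.63.

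Markers of undifferentiated spermatogonia were split. Of 19 tested, 8 were called higher and 3 lower, and the median was 0.19. *Lin28a*, an RNA-binding protein of early progenitors, had log2 signals of 2.44, 2.35 and 1.86 at 5 dpp and 4.13, 4.14 and 4.12 at 7 dpp, of which all 5 dpp values were below the filter level (log2 difference 1.92, standard error 0.14, adjusted p = 7.11e-05). *Sox3*, an X-linked factor of progenitors, rose by 1.86, *Taf4b*, a subunit of TFIID in the germ line, by 1.12, *Uchl1*, a ubiquitin hydrolase abundant in spermatogonia, by 1.08, *Zbtb16*, known as PLZF, by 0.81 and *Sall4* by 0.68. *Shisa6* and *Pou3f1* were also called higher. The members described next were called lower or not called. *Id4*, which marks stem cells, had signals of 6.53, 6.73 and 6.45 at 5 dpp and 6.04, 5.87 and 6.03 at 7 dpp (log2 difference -0.59, standard error 0.085, adjusted p = 0.00117), with every 7 dpp array below the 5 dpp arrays. Its call was lost without replicate 2 at 5 dpp (-0.51) or at 7 dpp (-0.54). *Gfra1*, the GDNF co-receptor, differed by -0.30 and *Etv5*, a GDNF target, by -0.47, and neither was called. *Lhx1*, another GDNF target, was called lower at -0.78, as was *Cdh1*, an epithelial cadherin, at -1.45. With the third array as the only 5 dpp array, 1 member in place of 3 was called lower.

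X-linked genes of spermatogonia were all called higher where tested, 9 of 9, with a median of 1.42. *Rhox13* had log2 signals of 3.94, 3.93 and 4.11 at 5 dpp and 6.07, 6.11 and 6.31 at 7 dpp (log2 difference 2.17, standard error 0.08, adjusted p = 1.56e-05). Its 5 dpp arrays lay close together and far below those of 7 dpp. *Taf7l*, a TFIID subunit of germ cells, rose by 1.31, *Tktl1*, a transketolase-like gene, by 1.32, and the RNA export factor genes *Nxf2* and *Nxf3* by 1.04 and 1.46. The second 7 dpp array was the lowest of its age for *Nxf3*, at 4.15 against 5.13 and 5.10. The list has 15 genes on the array, and those not tested lay below the filter at both ages. Over the whole X chromosome, 45 of 371 genes tested were called higher (12.1%) and 27 lower (7.28%), and of 9878 autosomal genes 370 were called higher (3.75%) and 444 lower (4.49%).

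Of the retinoic acid pathway, 3 of 15 genes tested were called higher and none lower by limma (3 lower at an unadjusted p under 0.05), and the median was 0.083. The genes called were *Stra8*, *Crabp1* and *Rbp4*, the carrier of retinol, with signals of 4.72, 4.50 and 4.12 at 5 dpp and 5.49, 5.55 and 5.80 at 7 dpp (log2 difference 1.17, standard error 0.15, adjusted p = 0.000719). The groups of *Rbp4* did not overlap. *Aldh1a1*, the synthesis enzyme of Sertoli cells, had signals of 11.01 ± 0.034 at 5 dpp and 10.95 ± 0.11 at 7 dpp (SD, n = 3 each) and differed by -0.056. Without replicate 2 at 7 dpp this difference was 0.0050. *Cyp26b1*, the main degrading enzyme, differed by 0.10, and neither enzyme was called. *Dhrs3*, which returns retinaldehyde to retinol, differed by -0.56 and was called lower without replicate 3 at 5 dpp (-0.62) or replicate 1 at 7 dpp (-0.65). Among 17 genes of DNA methylation and germ line repression, *Dnmt3b* alone was called higher and none lower by limma (3 lower at an unadjusted p under 0.05), and the median was 0.045.

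Niche ligands and receptors moved downward more often than upward. Of 22 tested, 1 was called higher, namely *Kit*, and 7 lower, with a median of -0.29. The count of calls higher was 2 without replicate 2 at 5 dpp or replicate 1 at 7 dpp. *Inhba* had log2 signals of 8.11, 7.98 and 8.14 at 5 dpp and 6.80, 7.04 and 6.86 at 7 dpp (log2 difference -1.18, standard error 0.077, adjusted p = 5.45e-05). *Igf1*, insulin-like growth factor 1, had signals of 9.49, 9.50 and 9.31 at 5 dpp and 8.45, 8.47 and 8.45 at 7 dpp (log2 difference -0.98, standard error 0.061, adjusted p = 4.61e-05). In both genes every 7 dpp array was below every 5 dpp array. *Cxcl12*, the chemokine that holds stem cells in the niche, fell by 0.68, *Nrg1*, a ligand of ERBB receptors, by 0.74 and *Wnt5a* by 0.61. The call of *Wnt5a* was lost without replicate 3 at 5 dpp (-0.58) or at 7 dpp (-0.56). *Tgfb2* and *Fgfr2* fell by 1.09 and 0.77, and with the third array as the only 5 dpp array they differed by -0.97 and -0.38 without a call. *Gdnf*, the stem cell factor of Sertoli cells, had signals of 5.75, 5.83 and 5.92 at 5 dpp and 5.42, 5.50 and 5.29 at 7 dpp and was not called at -0.43, although every 7 dpp array was below the 5 dpp arrays. *Kitl*, the ligand of KIT, differed by 0.18 without a call.

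The 27 Sertoli cell markers tested had a median difference of 0.0094, and 2 were called higher and 5 lower. The defining genes *Sox9*, *Wt1* and *Clu* differed by 0.29, 0.10 and 0.20, none called, and the mean log2 signal over the list was 7.38 to 7.41 on the 5 dpp arrays and 7.19 to 7.22 on the 7 dpp arrays. *Cldn11*, the tight junction claudin of the blood-testis barrier, had log2 signals of 5.93, 5.98 and 6.11 at 5 dpp and 7.48, 7.32 and 7.51 at 7 dpp (log2 difference 1.43, standard error 0.072, adjusted p = 2.82e-05). *Gata1*, a Sertoli cell transcription factor, rose by 1.24 from below the filter level. *Ptgds*, a prostaglandin D synthase, went the other way, with signals of 8.12, 8.17 and 7.97 at 5 dpp and 5.97, 6.25 and 5.94 at 7 dpp (log2 difference -2.03, standard error 0.095, adjusted p = 2.16e-05). Its 7 dpp arrays were all about 2 log2 units below those of 5 dpp. *Hsd17b1*, a steroid dehydrogenase of immature Sertoli cells, fell by 1.10. *Amh*, anti-Müllerian hormone, had signals of 4.52, 4.49 and 4.68 at 5 dpp and 4.28, 3.82 and 3.75 at 7 dpp and fell by 0.61, but the call was lost without replicate 3 at 5 dpp (-0.55) and without replicate 2 (-0.55) or 3 (-0.51) at 7 dpp. The remaining genes called lower were *Krt8* and *Krt18*, keratins that other epithelia share.

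Calls in the other somatic lists stand beside 4.05% higher and 4.60% lower of all genes. Of 13 genes of Leydig cells and steroid synthesis, 2 were called lower (15.4%) and none higher by limma (2 higher at an unadjusted p under 0.05), with a median of -0.35. In 8 of the 13 every 7 dpp array lay below every 5 dpp array, against 28.3% of all genes tested. *Cyp11a1*, the side-chain cleavage enzyme, fell by 0.70, which was not called without replicate 2 at 7 dpp (-0.57), and *Thbs2*, a matrix protein of fetal Leydig cells, fell by 0.68. *Star*, which carries cholesterol into the mitochondria, and *Cyp17a1*, an androgen-producing enzyme, had overlapping groups and differed by 0.37 and 0.32. Of 13 genes of peritubular myoid cells and smooth muscle, 0 were called by limma, 1 was higher and 6 were lower at an unadjusted p under 0.05, and the median was -0.19. Without replicate 3 at 5 dpp, 1 was called lower. *Acta2*, smooth muscle actin, had signals of 10.15, 10.35 and 10.12 at 5 dpp and 10.23, 10.15 and 10.15 at 7 dpp. Its groups overlapped, and its difference of -0.031 turned to 0.039 without replicate 2 at 5 dpp and to 0.052 with the third array as the only 5 dpp array.

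Of 10 endothelial genes, 3 were called lower (30%) and none higher by limma (0 higher at an unadjusted p under 0.05), and the median was -0.46. *Cdh5*, the vascular cadherin, had signals of 5.53, 5.45 and 5.50 at 5 dpp and 4.73, 4.88 and 4.84 at 7 dpp (log2 difference -0.68, standard error 0.056, adjusted p = 0.000117), with no overlap. *Emcn* and *Ramp2* fell by 1.10 and 0.65, and with the third array as the only 5 dpp array they differed by -0.57 and -0.53, and 1 endothelial gene was called lower. Of 11 macrophage genes, 1 was called lower and none higher by limma (0 higher at an unadjusted p under 0.05), with a median of -0.14. It was *Lyve1* (-1.45), which lymphatic endothelium also expresses, and it was not called with the third array as the only 5 dpp array (-0.96). In that setting the median of the macrophage list was 0.084.

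Imprinted genes of fetal growth fell in most cases. Of 14 tested, 10 were called lower and none higher by limma (0 higher at an unadjusted p under 0.05), the median was -0.72, and in all 14 every 7 dpp array lay below every 5 dpp array. *Mest*, a paternally expressed gene, had log2 signals of 7.61, 7.51 and 7.16 at 5 dpp and 6.05, 5.92 and 5.89 at 7 dpp (log2 difference -1.48, standard error 0.11, adjusted p = 9.14e-05). *Igf2*, the fetal insulin-like growth factor, had signals of 8.36, 8.39 and 8.25 at 5 dpp and 7.36, 7.61 and 7.37 at 7 dpp (log2 difference -0.88, standard error 0.079, adjusted p = 0.00016). For both genes the 7 dpp values sat near 1 log2 unit or more below those of 5 dpp. *Slc38a4*, an amino acid transporter, fell by 1.34, the growth regulators *Dlk1*, *Peg3* and *Plagl1* by 0.77, 0.74 and 0.71, and *Cdkn1c*, a CDK inhibitor, by 0.97.

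The insulin-like growth factor axis, which shares *Igf1* and *Igf2* with other lists, had 5 of 13 genes called lower and none higher by limma (0 higher at an unadjusted p under 0.05), with a median of -0.51. *Igfbp5*, a binding protein that limits IGF access to its receptor, had signals of 7.91, 7.92 and 7.62 at 5 dpp and 5.77, 6.04 and 5.18 at 7 dpp (log2 difference -2.15, standard error 0.20, adjusted p = 0.000189), and its other probe set differed by -0.20 without a call. *Igfbp3* fell by 1.04. The receptor gene *Igf1r* was not called, at -0.045.

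Collagens and matrix proteins were called lower in 11 of 25 cases and higher in 1, with a median of -0.49, and 18 of the 25 had their lowest 5 dpp value on the third array. *Lum*, a proteoglycan of collagen fibrils, had log2 signals of 8.33, 8.35 and 7.58 at 5 dpp and 6.52, 6.71 and 5.68 at 7 dpp (log2 difference -1.78, standard error 0.30, adjusted p = 0.00224). The third 5 dpp array was the lowest of its age and the third 7 dpp array was the lowest of all. *Col1a1* fell by 0.78 and *Col5a2* by 1.12. The exception was *Col4a3*, a basement membrane collagen, which rose by 0.76. With the third array as the only 5 dpp array, 7 of these genes were called lower.

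Of 26 genes of DNA replication and mitosis, 2 were called lower and none higher by limma, 14 were lower and 1 was higher at an unadjusted p under 0.05, and the median was -0.18. They were *Ccna2*, described above, and *Kif11*, a spindle motor, at -0.70. *Mki67*, the proliferation antigen, had signals of 8.70, 8.75 and 8.68 at 5 dpp and 8.26, 8.43 and 8.27 at 7 dpp, lower on every 7 dpp array and below the fold threshold (log2 difference -0.39, standard error 0.06, adjusted p = 0.00174). Among 12 cyclins D, cyclin-dependent kinases and their inhibitors, *Cdkn2a*, the Ink4a/Arf gene, rose by 1.53 from below the filter level, while *Cdkn1c* and *Ccnd2* fell, and the median was -0.19.

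**Figure D3:**
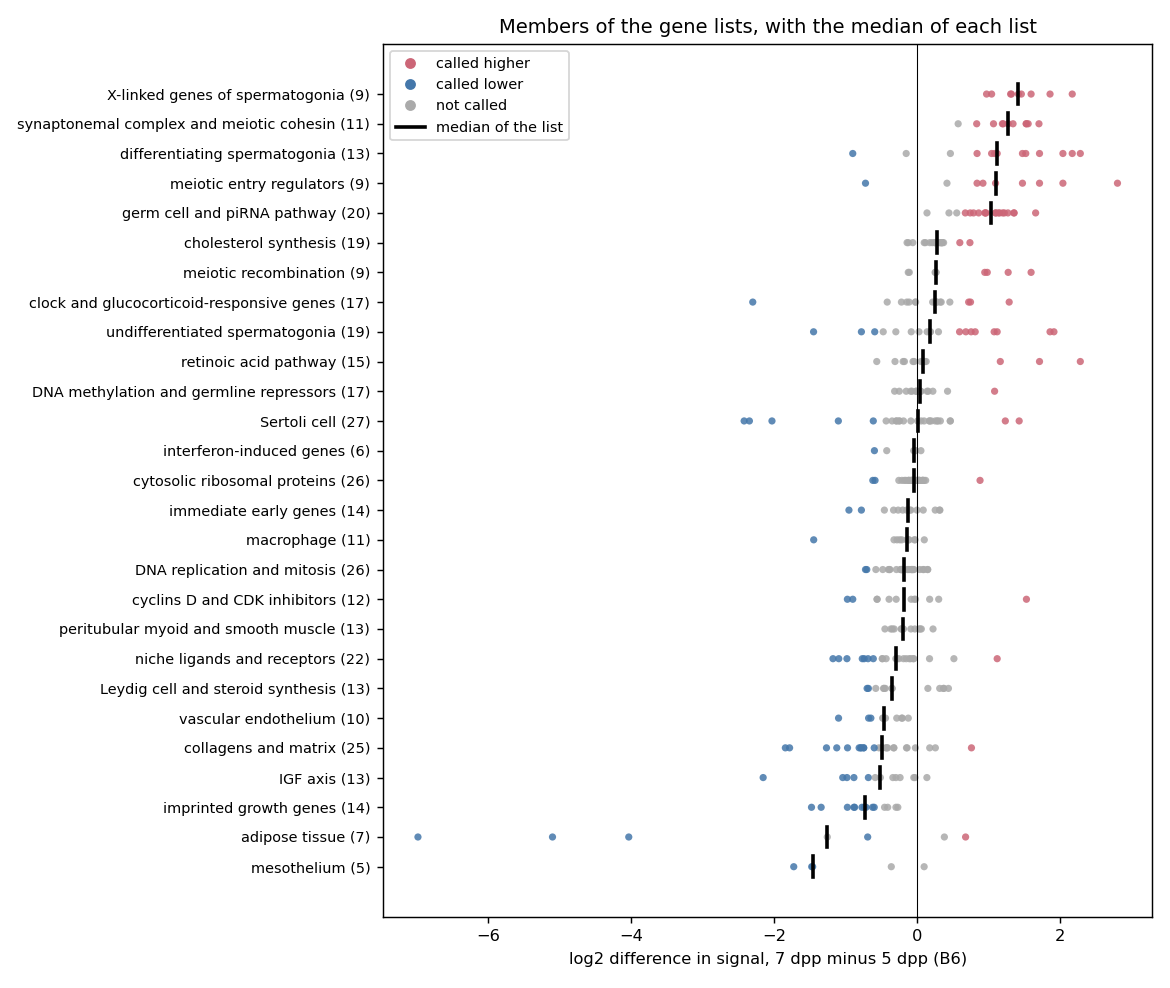
Log2 difference, 7 minus 5 dpp, of each tested member of each gene list (points, coloured by call) with the list median as a bar. The medians of the X-linked spermatogonia (1.42), synaptonemal complex and cohesin (1.28), differentiating spermatogonia (1.12), meiotic entry (1.10) and piRNA (1.03) lists lie farthest to the right and those of the mesothelium (-1.46) and adipose (-1.25) lists farthest to the left. Some genes stand on more than 1 list, such as Dazl on the meiotic entry and piRNA lists.

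The adipose list had 7 genes tested, of which 4 were called lower and 1 higher, with a median of -1.25. *Car3*, a carbonic anhydrase abundant in adipocytes, had log2 signals of 10.56, 9.72 and 4.68 at 5 dpp and 0.62, 2.18 and 1.22 at 7 dpp. *Fabp4*, a fatty acid binding protein, had signals of 8.80, 7.85 and 3.61 at 5 dpp and 1.69, 1.89 and 1.39 at 7 dpp. *Adipoq*, the hormone adiponectin, had signals of 7.13, 6.27 and 1.75 at 5 dpp and 1.37, 1.10 and 0.59 at 7 dpp. In each of these 3 genes the first and second 5 dpp arrays were high, the third was far lower, and the 7 dpp arrays were below the filter level throughout. The differences were -6.98 (standard error 1.36, adjusted p = 0.00462), -5.10 (standard error 1.15, adjusted p = 0.00882) and -4.03 (standard error 1.21, adjusted p = 0.0275).

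Without the third 5 dpp array the same differences were -8.80, -6.67 and -5.68. Without the first they were -5.86, -4.07 and -2.99, and without the second -6.28, -4.55 and -3.42. With the third array as the only 5 dpp array, *Car3* differed by -3.34 and *Fabp4* by -1.96, both still called. The *Adipoq* call was lost without the first 5 dpp array (adjusted p = 0.0775), without the second (adjusted p = 0.0779) or without any 7 dpp array. The *Fabp4* call was lost with a trended and robust prior (adjusted p = 0.0576). *Retn*, the hormone resistin, had signals of 4.72, 4.02 and 2.51 at 5 dpp and 2.52, 2.41 and 2.56 at 7 dpp and was not called (adjusted p = 0.0606), but it was called lower when the third 5 dpp array was left out (-1.87), with array weights and in 1 fit over all groups of the series. *Lpl*, lipoprotein lipase, fell by 0.69 but not without the first 5 dpp array (-0.54), and without that array 2 adipose genes were called lower. *Dgat2*, a triglyceride synthesis enzyme, rose by 0.68, which was not called without the third 5 dpp array (0.57).

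The mean log2 signal over the 7 adipose genes was 7.36, 6.75 and 4.55 on the 5 dpp arrays and 3.70 to 3.97 on the 7 dpp arrays. The part of adipose tissue in the differences between the ages was not tested. Erythroid, skeletal muscle and epididymal or efferent duct lists had no member tested, with no value above 3.34, 2.92 and 3.27. The duct list does not hold *Adgrg2*, a receptor of efferent ducts, which had signals of 4.67, 5.31 and 3.03 at 5 dpp. *Spink8* and *Defb29* are not on it either.

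Genes of the covering epithelium, and some other genes that are on no mesothelial list, followed a similar order of arrays. Of 5 mesothelial genes tested, 3 were called lower and none higher by limma (0 higher at an unadjusted p under 0.05), with a median of -1.46. The median was -0.71 with the third array as the only 5 dpp array, and 0.10 with none called lower when the filter was raised to log2 of 50. *Upk3b*, a uroplakin of mesothelium, had signals of 5.63, 5.49 and 4.68 at 5 dpp and 3.72, 3.89 and 3.03 at 7 dpp (log2 difference -1.72, standard error 0.29, adjusted p = 0.00234), with the third 5 dpp array lowest of its age. *Gpm6a* fell by 1.47 and *Krt19*, a keratin, by 1.46. *Krt8*, an epithelial keratin on the Sertoli list, had signals of 5.59, 6.09 and 4.73 at 5 dpp and 3.01, 3.57 and 2.79 at 7 dpp, and *Krt18*, its partner, 4.93, 5.15 and 4.02 at 5 dpp and 2.04, 2.32 and 2.50 at 7 dpp. The 3 probe sets of *Krt8* fell alike, by 2.32 to 2.41. *Adgrg2*, a receptor of efferent ducts, had signals of 4.67, 5.31 and 3.03 at 5 dpp and 1.84, 2.05 and 1.71 at 7 dpp, and without the third 5 dpp array its difference was -3.12 in place of -2.47. *Spink8*, a protease inhibitor, and *Defb29*, a defensin, fell by 2.95 and 2.49, and *Spink8* differed by -1.71 with the third array as the only 5 dpp array. The calls of *Spink8*, *Defb29* and *Lcn2* were lost in 1 fit over all groups of the series, at adjusted p = 0.0522, 0.0682 and 0.0734.

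**Figure D4:**
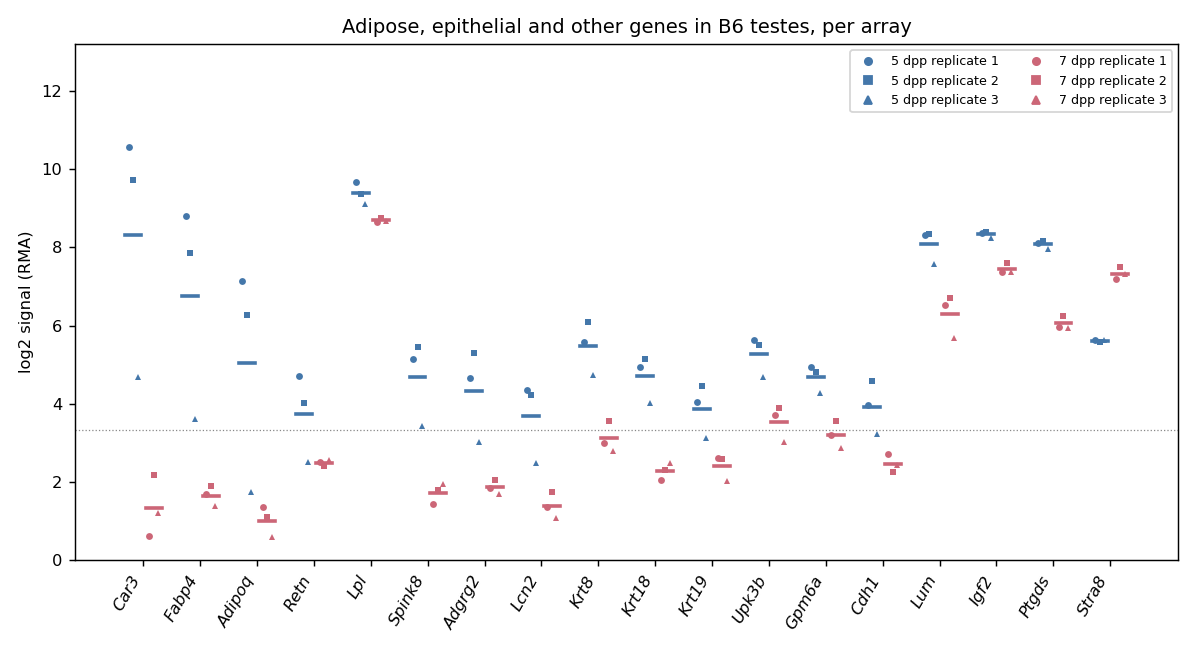
Log2 signal of genes of adipose tissue and epithelium, with Lum, Igf2, Ptgds and Stra8 beside them, on each of the 6 B6 arrays, 3 at 5 dpp and 3 at 7 dpp, with the filter level of log2 of 10 dotted. The third 5 dpp array lies below the other 5 dpp arrays in the genes shown except Stra8, most of all in Car3, where it has 4.68 against 10.56 and 9.72.

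Smaller lists gave single genes. Of 19 genes of cholesterol synthesis, 2 were called higher and none lower by limma (0 lower at an unadjusted p under 0.05), the median was 0.27, and 14 had all 7 dpp arrays above all 5 dpp arrays. *Srebf2*, the transcription factor of the pathway, rose by 0.74, and *Lss*, lanosterol synthase, by 0.60, each by 1 of 2 probe sets. The call of *Lss* was lost without replicate 2 at 5 dpp or replicate 3 at 7 dpp (0.55 each).

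Of 17 clock and glucocorticoid-responsive genes, 3 were called higher and 1 lower, with a median of 0.25. Without replicate 1 at 7 dpp, 2 were called lower. *Klf9*, a transcription factor induced by glucocorticoid and thyroid hormone, had log2 signals of 6.62, 6.56 and 6.60 at 5 dpp and 8.03, 7.74 and 7.88 at 7 dpp (log2 difference 1.29, standard error 0.077, adjusted p = 3.95e-05), with the ages more than 1 log2 unit apart. The circadian repressors *Per1* and *Ciart* rose by 0.72 and 0.75, and their promoter windows hold CACGTG, as do those of 6 of 15 genes of the list. *Lcn2*, lipocalin 2, fell by 2.30, and by 2.89 when the third 5 dpp array was left out. Of 14 immediate early genes, 2 were called lower and none higher by limma (2 higher at an unadjusted p under 0.05), with a median of -0.12. They were *Egr1* (-0.95) and *Ccn1* (-0.78), and *Ccn1* was not called with the third array as the only 5 dpp array (-0.71).

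*Ifit2* (-0.60) was the only call among 6 interferon-induced genes, with none higher by limma (0 higher at an unadjusted p under 0.05) and a median of -0.037. The call was lost without replicate 2 at 5 dpp (-0.58) and without replicate 2 (-0.56) or 3 (-0.57) at 7 dpp. Of 26 cytosolic ribosomal protein genes, the germ line paralog *Rpl39l* rose by 0.88, with signals of 7.18, 7.19 and 7.21 at 5 dpp and 8.02, 8.08 and 8.12 at 7 dpp. The 7 dpp arrays of *Rpl39l* all lay above those of 5 dpp. *Rps6* (-0.62) and *Rpl14* (-0.59) were called lower, both calls were lost without replicate 2 at 5 dpp (-0.58 and -0.50), that of *Rpl14* also without replicate 2 at 7 dpp (-0.47), and the median of the list was -0.05.

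The same interval was then read in the other strains, whose arrays entered the results above only through the 1 fit over all groups. In MSM 5.34% of genes tested were called higher at 7 dpp and 7.67% lower, in B6-ChrXMSM 1.55% and 1.18%, and in B6-ChrXTMSM 0.252% and 0.513%. Of the 407 genes called higher in B6 and kept in the fits of each strain with B6, 45.2% were called higher in MSM. The shares were 30.5% in B6-ChrXMSM and 4.18% in B6-ChrXTMSM. Their median changes were 0.55, 0.51 and 0.16. Of the genes called lower in B6 and kept likewise, 27.5% were called lower in MSM, 21.5% in B6-ChrXMSM and 9.13% in B6-ChrXTMSM. Their medians were -0.41, -0.38 and -0.23. Genes below the filter at both ages of a strain, such as *Meioc* and *Dmrtb1* in both substitution strains, were not tested there and count as not called. These shares are therefore not on the same basis as those over all genes. The genes were also selected by their B6 change, which can make the changes elsewhere look smaller. Positions in which MSM differs from B6 within a probe can change its signal, and those outside chromosome 1 and the X chromosome were not removed here.

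The difference itself was tested by an age by strain term for each strain, which is the change in the strain less the change in B6. These terms share the B6 arrays. Over all genes, 6.57% of terms were called negative and 4.07% positive for MSM, 0.590% and 0.807% for B6-ChrXMSM, and 2.83% and 2.27% for B6-ChrXTMSM. In 1 fit over all groups the B6-ChrXTMSM counts fell from 287 negative and 231 positive to 106 and 121. The B6-ChrXMSM counts, 60 negative and 82 positive, fell in that fit to 1 and 2, and they also moved with single arrays. The negative terms were 36 without replicate 1 at 5 dpp of B6 and 32 without replicate 3 at 7 dpp of B6. The positive terms were 48 without replicate 1 or 2 at 5 dpp of B6, 138 without replicate 3 at 5 dpp of B6, 53 without replicate 3 at 7 dpp of B6 and 49 without replicate 3 at 7 dpp of B6-ChrXMSM. Most members of the lists that follow were called higher in B6. The B6 change enters each term, so their counts of negative terms do not measure how often terms differ. In the fits of both substitution strains, *Meioc* and *Dmrtb1* passed the filter through B6 at 7 dpp alone. Among 9 regulators of meiotic entry, 2 terms were negative for MSM, 2 for B6-ChrXMSM and 7 for B6-ChrXTMSM. Among 11 synaptonemal complex and cohesin genes they were 3, 0 and 9, and by limma 1 of these genes had a negative term for B6-ChrXMSM at an unadjusted p under 0.05. Of the germ cell and piRNA genes 7 of 21, 1 of 20 and 16 of 20 terms were negative, and of 13 markers of differentiating spermatogonia 4, 5 and 10.

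For *Stra8* the change was 1.17 in MSM, 1.43 in B6-ChrXMSM and 0.084 in B6-ChrXTMSM, and the term was -1.63 for B6-ChrXTMSM (standard error 0.31, adjusted p = 0.00505). A term compares changes and not levels. In B6-ChrXMSM *Stra8* rose from a lower level, with means of 3.65 at 5 dpp and 5.09 at 7 dpp. Its means were 5.61 and 7.33 in B6, and 4.99 and 5.07 in B6-ChrXTMSM. *Sycp3* changed by 1.02, 1.77 and 0.21, with terms of -0.68 for MSM, lost without replicate 1 at 5 dpp of MSM (-0.57), and -1.50 for B6-ChrXTMSM. Its means at 5 and 7 dpp were 3.40 and 5.17 in B6-ChrXMSM, 5.21 and 6.91 in B6, and 5.10 and 5.31 in B6-ChrXTMSM. The change of *Meioc* was 3.15 in MSM, 0.15 in B6-ChrXMSM and 0.025 in B6-ChrXTMSM, and in both substitution strains its means were below the filter level at both ages. *Stag3* rose in B6-ChrXMSM by 1.23, from a mean of 3.34 to 4.57, against 4.56 and 5.90 in B6. It changed by 0.038 in MSM, where its 5 dpp mean of 5.89 was already near the B6 mean at 7 dpp. *Sox3* behaved alike in MSM, at 6.09 at 5 dpp and 5.96 at 7 dpp, against 4.25 and 6.12 in B6. *Kit* had terms of -0.94 for MSM, -0.61 for B6-ChrXMSM and -1.07 for B6-ChrXTMSM, and the second was called without replicate 3 at 5 dpp of B6 or of B6-ChrXMSM but lost without any other array (-0.66 to -0.48). *Igf1*, which fell in B6, had changes of -0.11 in MSM and -0.71 in B6-ChrXMSM.

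**Figure D5:**
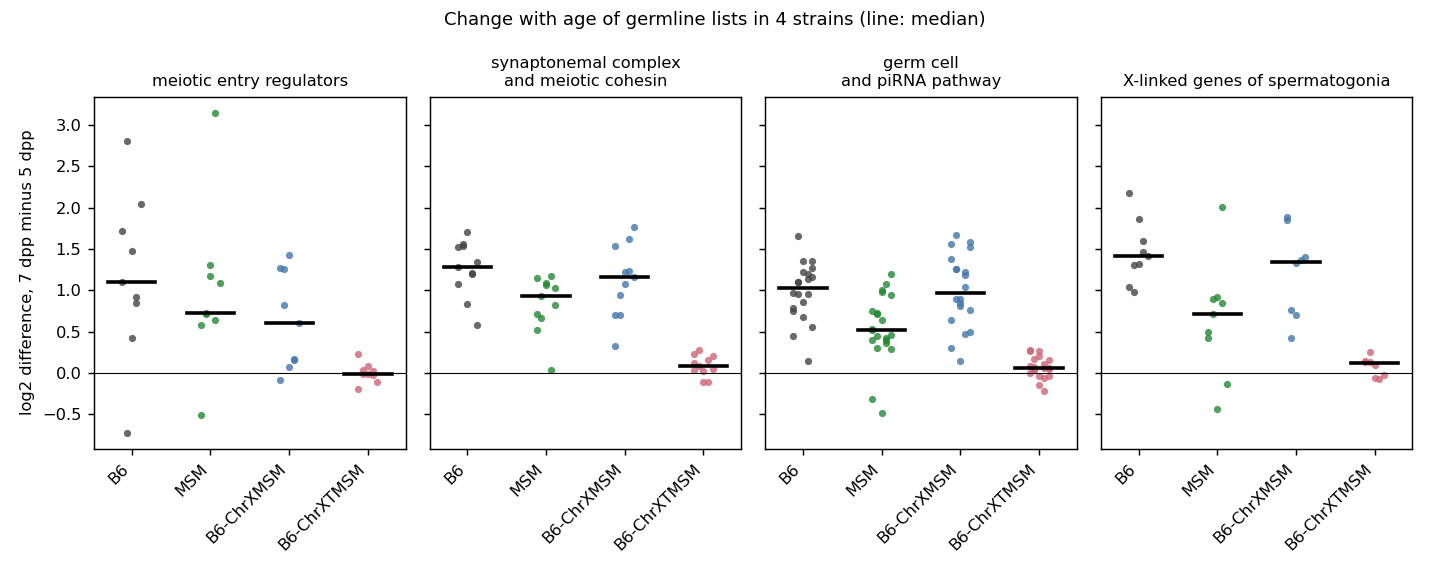
Log2 change from 5 to 7 dpp of the members of gene lists in B6, MSM, B6-ChrXMSM and B6-ChrXTMSM testes, points for genes and bars for medians, 3 arrays per age and strain. The B6-ChrXTMSM medians of the meiotic entry, synaptonemal complex and cohesin, and piRNA lists are -0.011, 0.087 and 0.061, against 1.10, 1.28 and 1.03 in B6.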

How the data were processed

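Whole-testis RNA of B6, MSM, B6-ChrXMSM and B6-ChrXTMSM males at 5 and 7 dpp was measured on Affymetrix arrays, and labels alone set the group of each array, 3 per group. The deposited log2 signals had been made by the authors with the RMA method in GeneSpring GX, and the version is not given in the sources used here. RMA corrects background, quantile-normalizes the arrays and summarises the probes of a probe set, which compresses differences of weak signals. No value was normalized again. The number of arrays limits the precision, and p-values measure the spread between 3 mice per group.

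Of 45101 probe sets, 34958 had 1 gene, 932 several and 9211 none, by the platform annotation with symbols updated through RefSeq. The 34871 probe sets with 1 gene on an autosome or the X chromosome were used, for 18135 genes. A probe set was kept when a group mean exceeded log2 of 10. Each gene was represented by its kept probe set of highest mean over the 6 B6 arrays, 1 of several for 4394 genes, and no called gene had another probe set called the other way. Ages were compared by the moderated test of limma (version 3.58.1, R 4.3.3), two-sided, with Benjamini-Hochberg adjustment over all 17340 probe sets kept. A call needed an adjusted p under 0.05 and a fold of at least 1.5. Age by strain terms came from fits of the 4 groups of a strain and B6, without probe sets that the study lists as polymorphic on chromosome 1 or the X chromosome. Calls were tested on simulated data. Figures were drawn with matplotlib 3.10.9, and tables were made with pandas 2.3.3 in Python 3.11.15.

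The comparison, the 30 gene lists, the strain genes and the tests were chosen with earlier results of these data known. Genes named are the 10 largest called rises and 10 largest falls whose arrays do not overlap, the 5 and 5 largest of genes above log2 of 100 at both ages, and of each list the largest called changes and its defining members. Promoter motifs were searched in 250 bases before the start in the RefSeq windows, of which 8354 of 10249 tested genes had at least 1 and 1742 more than 1.

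Alternatives were the fold threshold, the filter, the choice or mean of probe sets, 2 further normalizations, 1 fit over all groups, a trended and robust prior, array weights, a replicate block, and leaving out each array. The use of the third 5 dpp array as the only 5 dpp array was added after the values were seen. XS39-tel and (B6-ChrXTMSM x B6-Chr1MSM)F1 males entered only the 1 fit over all groups.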

Additional observations from a re-analysis of the deposited data

Results flagged for a closer look

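The change from 5 to 7 dpp differed between B6 and another strain, by the age by strain term of limma, for 24 pairs of gene and strain among 11 genes and 3 strains. All 11 genes were called in B6, and the B6 change enters each term, so this count does not measure how often terms differ. Over all genes tested, the shares of terms called negative and positive were 6.57% and 4.07% for MSM, 0.590% and 0.807% for B6-ChrXMSM, and 2.83% and 2.27% for B6-ChrXTMSM. Each value is the change in that strain less the change in B6 on the log2 scale, with 3 arrays per age and strain.

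In MSM the terms were negative for the progenitor factor Sox3 (-1.99), the cohesin Stag3 (-1.30), the ubiquitin hydrolase Uchl1 (-1.17), the receptor Kit (-0.94), the meiotic switch factor Dmrtb1 (-0.74) and the lateral element gene Sycp3 (-0.68). They were positive for Ptgds (0.96) and Igf1 (0.87), which fell in B6. The MSM term of Dmrtb1 was lost without any 1 of 10 of the 12 arrays, at -0.81 to -0.56, and held without replicate 2 of either MSM age. In 1 fit over all groups of the series the MSM terms of Dmrtb1 (adjusted p = 0.22) and Sycp3 (adjusted p = 0.304) were not called.

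In B6-ChrXMSM the terms were negative for Meioc (-2.65), Dmrtb1 (-1.96), the X-linked homeobox gene Rhox13 (-1.47) and Kit (-0.61), and positive for Ptgds (1.29). Both ages of this strain had means of Meioc and Dmrtb1 below log2 of 10. In 1 fit over all groups none of these 5 terms was called, with adjusted p = 0.0649 for Meioc, 0.0751 for Dmrtb1, 0.12 for Rhox13, 0.343 for Kit and 0.105 for Ptgds by limma.

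In B6-ChrXTMSM the terms were negative for Meioc (-2.78), Rhox13 (-2.08), Dmrtb1 (-2.05), Sox3 (-1.93), Stra8 (-1.63), Sycp3 (-1.50), Stag3 (-1.46), Kit (-1.07) and Uchl1 (-0.92). They were positive for Ptgds (1.52) and Igf1 (0.75). The Igf1 term was lost without replicate 1 (0.42) or 2 (0.38) at 5 dpp of B6 and without replicate 2 (0.48) or 3 (0.41) at 7 dpp of B6-ChrXTMSM. In each of these fits another probe set represented Igf1, so the loss reflects the probe set and not the array alone. In 1 fit over all groups the terms of Sycp3 (adjusted p = 0.0685) and Uchl1 (adjusted p = 0.124) were not called.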

How the results depend on the processing

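In B6, without a fold threshold 2637 genes were called higher and 2265 lower, and with the filter at log2 of 50 the counts were 187 and 204. Leaving out 1 array gave 378 to 446 higher and 410 to 593 lower. With the third array as the only 5 dpp array, 413 were called higher and 316 lower, of X-linked genes 41 and 14. In 1 fit over all groups, positive and negative age by strain terms were 2 and 1 for B6-ChrXMSM and 121 and 106 for B6-ChrXTMSM. Leaving out 1 array, positive terms were 391 to 568 for MSM, 48 to 138 for B6-ChrXMSM and 175 to 325 for B6-ChrXTMSM, and negative terms 653 to 775, 32 to 72 and 227 to 358. The cause was not tested.

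Directions turned for Ccna2 (0.16 with the third array alone at 5 dpp), where another probe set then represented the gene, Dnmt3a (0.63 by the probe set of largest variance, 0.10 by the mean), Aldh1a1 (-0.094 to 0.0050 with 1 array left out) and Acta2 (-0.072 to 0.039 with 1 array left out, 0.052 with the third array alone at 5 dpp), and only Ccna2 of these had been called. B6-ChrXMSM terms that were not called and turned when 1 array was left out were those of Stra8 (-0.62 to 0.040), Sycp3 (-0.22 to 0.37), Stag3 (-0.44 to 0.17) and Uchl1 (-0.21 to 0.080).

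Same-numbered B6 arrays of the 2 ages had deviations from their group means correlated at -0.035, 0.030 and 0.16. Without values for differently numbered arrays beside them, these cannot show whether the numbers pair the samples. With the replicate number as a block, 415 genes were called higher and 477 lower, Retn was called (adjusted p = 0.0388), and the MSM term of Dmrtb1 (adjusted p = 0.0532) and the B6-ChrXMSM term of Kit (adjusted p = 0.0703) were not. Of the results for single named genes in B6, 2543 gave the same call and direction under an alternative, 50 lost the call, 32 gained it and 6 turned. Signals under log2 of 10 limit the size of changes of weak genes.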

Other observations

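The shares of genes called per autosome ran from 2.77% higher on chromosome 5 to 4.97% on chromosome 4, and from 2.29% lower on chromosome 19 to 7.40% on chromosome 3, which carries Car3 and Fabp4.

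Other letters were searched in the same promoter windows. TCCCGC, a core of E2F sites, stood in 16.9% of all windows, in 35.8% of tested genes with a window and in 35.8% of the genes called higher. CNCCTCAG stood in 6.42% of all windows and in 8.74% of tested genes with a window.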
